A study of Mus musculus with 96 samples.

Results

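Oocyte-like libraries of a mouse single-cell RNA sequencing series were compared by their place in the deposited count table. Of 96 libraries, 39 had at least 100000 gene counts, at least 4000 genes with a count and at least 100 CPM (a gene's counts per 1000000 counts of its library) of Mos, the kinase that keeps the mature egg arrested in meiosis. They were thus chosen by depth, detected genes and the measured level of Mos. All 39 lay in table columns 9 to 52, counted from 1: 22 of the 22 columns from 9 to 30, called the earlier columns here, and 17 of the 22 columns from 31 to 52, called the later columns. The 2 blocks are places in a table. Which genotype or stage a column holds was not taken from its place.

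The study profiled single metaphase II oocytes and single blastomeres of 2-cell embryos from a mouse line with the P620A variant of Padi6. Its labels name 22 wild-type oocytes (Padi6+/+), 22 oocytes of homozygous females (Padi6P620A/P620A), 22 wild-type 2-cell blastomeres (Padi6+/+), 22 blastomeres that carry the allele from the mother (Padi6MatP620A/+) and 8 negative controls. Every female was 4 to 8 weeks old and superovulated with PMSG and hCG, cumulus cells were taken off with hyaluronidase, and embryos came from in vitro fertilisation with sperm of males 8 to 12 weeks old. Polyadenylated RNA was captured on beads after DNA had been set aside. The labels name no animal, so each block counts as 1 sample. No test was run, and 95% intervals of ratios cover counting error only, since reads copied by PCR without molecular identifiers are not independent molecules.

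A metaphase II oocyte is transcriptionally silent and lives on RNA stored while it grew. Cytostatic factor, which includes Mos, holds its cell cycle until sperm entry, and the subcortical maternal complex and the cytoplasmic lattices, in which Padi6 takes part, hold maternal proteins for the early embryo. The cumulus cells around it are somatic cells with their own steroid-producing and matrix-producing programme, joined to the egg by fine projections.

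The column labels and the RNA in the columns did not match. The earlier columns held 6 libraries labelled wild-type oocyte, 6 labelled wild-type 2-cell, 6 labelled mutant 2-cell and 4 labelled negative control, and the kept later columns held 6, 8, 3 and 0. None was labelled mutant oocyte. Even so, all 39 libraries held oocyte RNA. Gdf9, a growth factor that the oocyte secretes, was at 1110 CPM or more in every earlier library and at 4741 CPM or more in every later one, and Padi6 was at 511 CPM or more in all of them. Outside both blocks, column 66 held 1699 CPM of Gdf9 and column 60 held 500 CPM of Padi6. The lowest kept level of Gdf9 alone therefore does not set the libraries apart, and that of Padi6 was only just above the level in column 60. Zfp352 and Tdpoz4, genes switched on at the 2-cell stage, had 0 counts in all 39, and Zscan4d, another such gene, reached at most 11.1 CPM in the earlier and 7.06 CPM in the later libraries. Of 13 listed sperm and male germ cell genes, 4 had no count in any kept library: Prm1, Tnp1, Tnp2 and Smcp. The 1 that was compared, Odf2, was at a pooled 117 CPM in the earlier and 122 CPM in the later columns.

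Mos was used to choose the libraries, so its level is a description. It ran from 201 CPM through a median of 1608 CPM to 4153 CPM in the earlier libraries and from 890 CPM through 1944 CPM to 6139 CPM in the later ones. The kept libraries nearest the limit were columns 25, 11 and 13, at 201, 476 and 740 CPM. The well-covered libraries nearest below it were columns 69, 60 and 79, at 63.3, 36.0 and 17.9 CPM, all outside both blocks. All 5 columns that were not kept lay in the later block. Columns 31 and 33 had 0 Mos counts and fewer than 4000 genes, and column 52 had 0 Mos counts beside 16554 CPM of Spp1. Column 32 had 651 CPM of Mos but 3671 genes and 0 counts of Padi6. Column 35 had 3259 CPM of Mos in only 33137 counts.

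**Figure D1:**
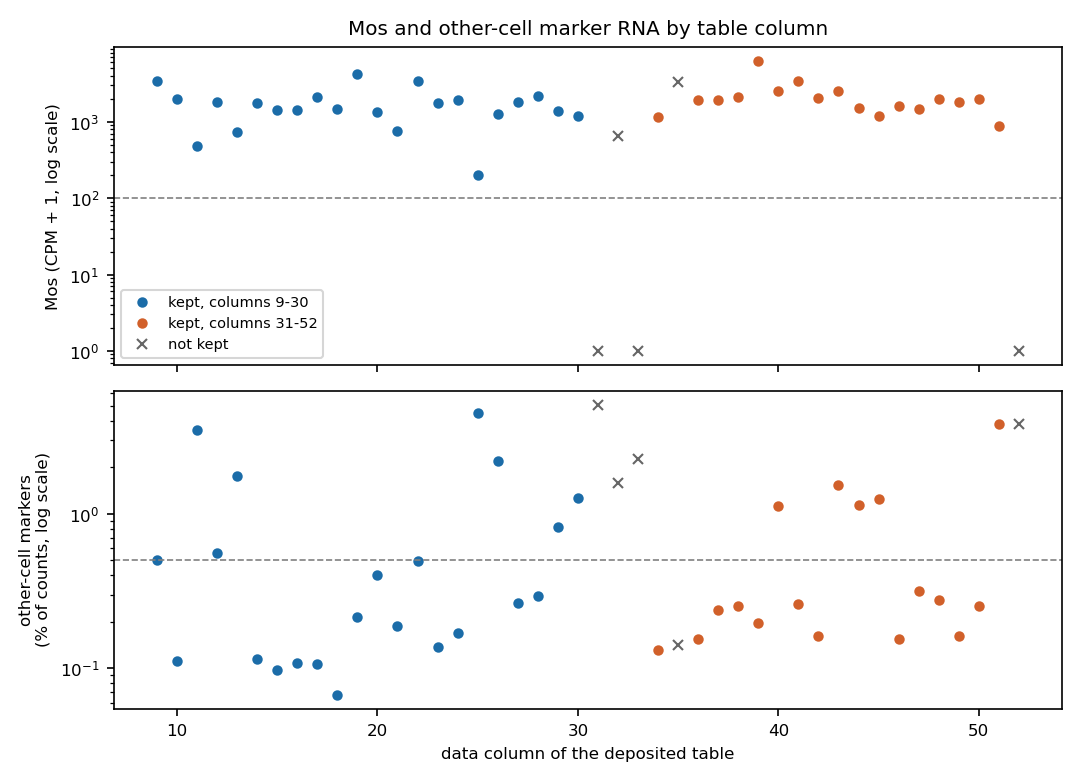
Mos level (upper panel, CPM plus 1, log scale) and the summed share of other-cell markers (lower panel, percent of counts, log scale) for each of the 44 table columns from 9 to 52. Filled points are the 39 kept libraries and crosses the 5 that were not kept; dashed lines stand at 100 CPM of Mos and at 0.5% of other-cell markers, and both blocks hold libraries on each side of the lower line.

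Total counts ran from 162539 to 5762563 in the earlier libraries and from 592532 to 4323022 in the later ones, and the median number of genes with a count was 13537.5 and 13960. After each library was thinned to 100000 counts, the medians were 8385 and 8909 genes, with ranges from 6827 to 11365 and from 7648 to 11146. The closest pair of kept libraries, columns 29 and 45, had a chi-square per degree of freedom of 13.2 between their counts, so no library was taken for a copy of another.

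The blocks also held RNA of other cells. Markers of cumulus and granulosa cells, oviduct, blood and immune cells, fibroblasts and endothelium together made up 0.0676% to 4.48% of counts in the earlier libraries, with a median of 0.280%, and 0.132% to 3.83% in the later ones, with a median of 0.254%. They exceeded 0.5% in 8 of 22 earlier and 5 of 17 later libraries. Of the 22 blood and immune markers, Hba-a2 and S100a9 had no count in any kept library. Spp1, which encodes the secreted phosphoprotein osteopontin, ran from 0 CPM through a median of 847 CPM to 23823 CPM in the earlier libraries and from 11.7 CPM through 515 CPM to 25258 CPM in the later ones. Its pooled level was 4121 CPM against 2505 CPM, a log2 ratio of -0.72 that became -0.06 without column 25. Spp1 is among the summed oviduct markers and was the larger part of the sum in columns 11, 25 and 51. There it was at 23752, 23823 and 25258 CPM, beside summed shares of 3.46%, 4.48% and 3.83%. The summed share and each rho with it therefore lean on this gene in such libraries. Whether Spp1 and the other markers came from cells attached to the oocyte or from RNA in solution was not tested.

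Most genes stood at similar levels in the 2 blocks. A gene was compared when its pooled level, its counts summed over a block's libraries and divided by their summed totals, reached 10 CPM in at least 1 block and when it had a count in at least 50% of the libraries of the block with the higher level. Of 9004 such genes, 80.7% lay within 1.5-fold. At least 2-fold higher in the later columns were 61 genes (0.677%), and at least 2-fold lower were 428 (4.75%), together 5.43%. At least 4-fold apart were 0 genes in the higher and 17 in the lower direction. The median log2 ratio, later over earlier, was -0.11. For 0 genes (0.0%) did all libraries of one block lie above all of the other.

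The size of the lower group rested on single libraries. It was 93 genes without column 25 and 221 without column 13, and 662 without column 40 and 711 without column 43. The higher group ran from 45 to 80 genes when each library was left out in turn. Scaling by DESeq2 size factors, which raised the ratio of all genes by 0.11 on the log2 scale, gave 90 higher and 275 lower genes, so that 24.7% of the genes past 2-fold were higher in place of 12.5%. Of the 61 higher genes, 50 had per-library medians at least 1.5-fold apart the same way and 1 had medians the other way. Of the 428 lower genes, 108 had medians that far apart the same way, while 192 had medians the other way.

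**Figure D2:**
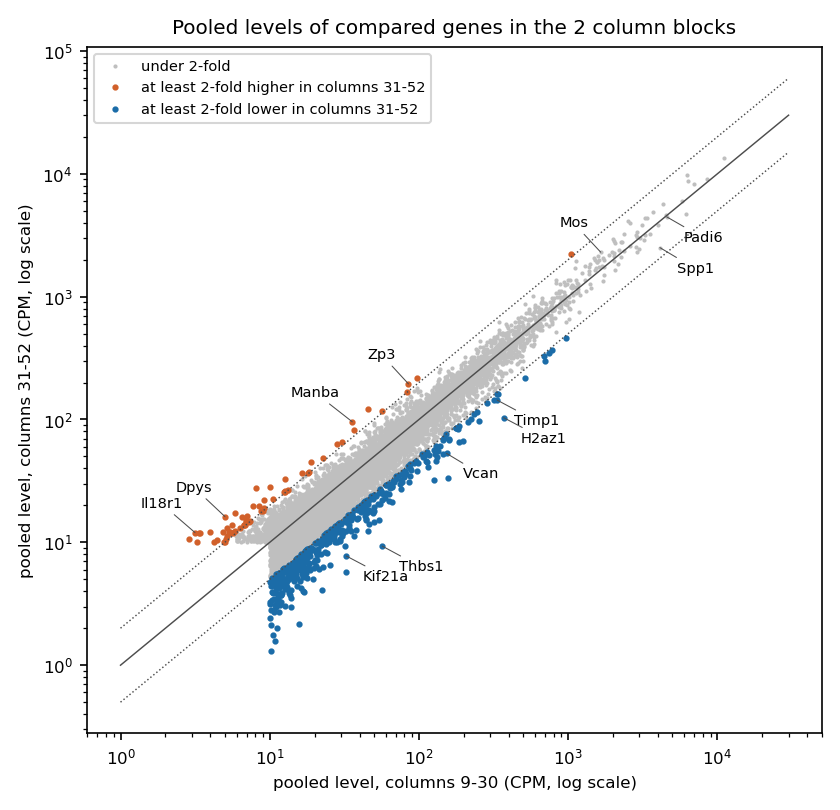
Pooled level of each of the 9004 compared genes in the earlier (x axis) and later (y axis) columns, in CPM on log scales. The solid line marks equal levels and the dotted lines a 2-fold difference; 61 genes lie on or above the upper dotted line and 428 on or below the lower one.

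Whole libraries did not separate by block. The Pearson correlation of log2(CPM + 1) over the compared genes had a median of 0.73 between pairs of earlier libraries, 0.80 between pairs of later libraries and 0.77 between an earlier and a later one. These libraries share their genes and differ in depth, so the values are descriptive. The most similar library to each was in its own block for 15 of 22 earlier and 9 of 17 later libraries. Column 25, with a median correlation of 0.21 to the others, and column 11, with 0.37, stood apart from the rest. The leading component of variation held 38.4% of the variance. Across the 39 libraries it had a Spearman's rho of 0.93 with the share of other-cell markers and -0.10 with total counts, and the 2 blocks overlapped along it.

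The 12 genes named as higher in the later columns were enzymes, receptors, a hormone, a sugar transporter and others of varied function. Manba, the lysosomal enzyme beta-mannosidase, had the highest pooled level of them. It ran from 0 CPM through a median of 11.1 CPM to 176 CPM in the earlier libraries and from 12.0 CPM through 104 CPM to 173 CPM in the later ones. Its pooled level was 2.68-fold higher in the later columns (95% interval 2.55 to 2.82). The ranges overlapped, and the later library was the higher in 80.5% of the 374 possible pairs of 1 earlier and 1 later library.

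Il18r1, a subunit of the interleukin-18 receptor, had the largest ratio of the named genes. Its libraries ran from 0 CPM through 1.78 CPM to 16.8 CPM in the earlier columns and from 0 CPM through 8.78 CPM to 37.4 CPM in the later ones, 3.81-fold higher when pooled (95% interval 3.24 to 4.50). Dpys, the pyrimidine-degrading enzyme dihydropyrimidinase, had a count in 10 of 22 earlier and 13 of 17 later libraries. Its median was 0 CPM against 15.7 CPM, and its pooled level was 3.23-fold higher in the later columns (95% interval 2.83 to 3.70). Libraries at 0 were present in both blocks for both genes.

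The other 9 named genes were between 2.49-fold and 3.68-fold higher. Fstl5, of the secreted follistatin-like family, was at a pooled 2.90 CPM in the earlier and 10.7 CPM in the later columns. Pramel48, of the PRAME family that is expressed in germ cells, was at a median of 8.60 CPM against 24.9 CPM. Uggt2, an endoplasmic reticulum enzyme of the family that checks glycoprotein folding, was at 7.08 CPM against 27.0 CPM. Pthlh, parathyroid hormone-like hormone, was at 3.02 CPM against 13.5 CPM. The remaining 5 were Hmcn2 of the extracellular matrix, the ubiquitin ligase Rnf165, the pseudouridine synthase homologue Pus7l, the receptor Tnfrsf19 and the sugar transporter Slc2a10. The later library was the higher in 67.4% to 79.4% of pairs for these 9 genes, and leaving out any 1 library moved none of the 12 ratios by 1.5 times.

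Across the 39 libraries, the 12 genes had a Spearman's rho between -0.13 and 0.22 with the share of other-cell markers. Of all 61 higher genes, 2 had a rho above 0.5, against 21.9% of all compared genes. In the 14 earlier and 12 later libraries with at most 0.5% of other-cell markers, the ratios of the 12 ranged from 2.36-fold for Pramel48 to 5.74-fold for Il18r1. These libraries are among those in which the genes were picked as higher. The part of other-cell RNA in the higher group was not tested.

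Directions were also taken under each label. Within libraries labelled wild-type oocyte, mutant 2-cell and wild-type 2-cell taken separately, 52 of the 61 were higher in the later columns in all 3, which 12.4% of all compared genes were. Of the 428 lower genes, 62 (14.5%) were lower in all 3, against 8.29% of all compared genes. At least 2-fold higher in all 3 were 7 genes (0.0777% of all compared): Dpys, Hmcn2, Il18r1, Col9a3, Fmo4, Tmem74 and Gm4610. The last 4 of them were chosen for this after their values were seen. At least 2-fold lower in all 3 were 10 genes (0.111%): Kif21a, A930015D03Rik, AA465934, H2-T22, Hnrnpul1, Mlycd, Mul1, Nupr1, Osmr and Trappc5. All of these but Kif21a were listed after their values were seen. The same libraries enter the pooled ratio, so this is no independent support.

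**Figure D3:**
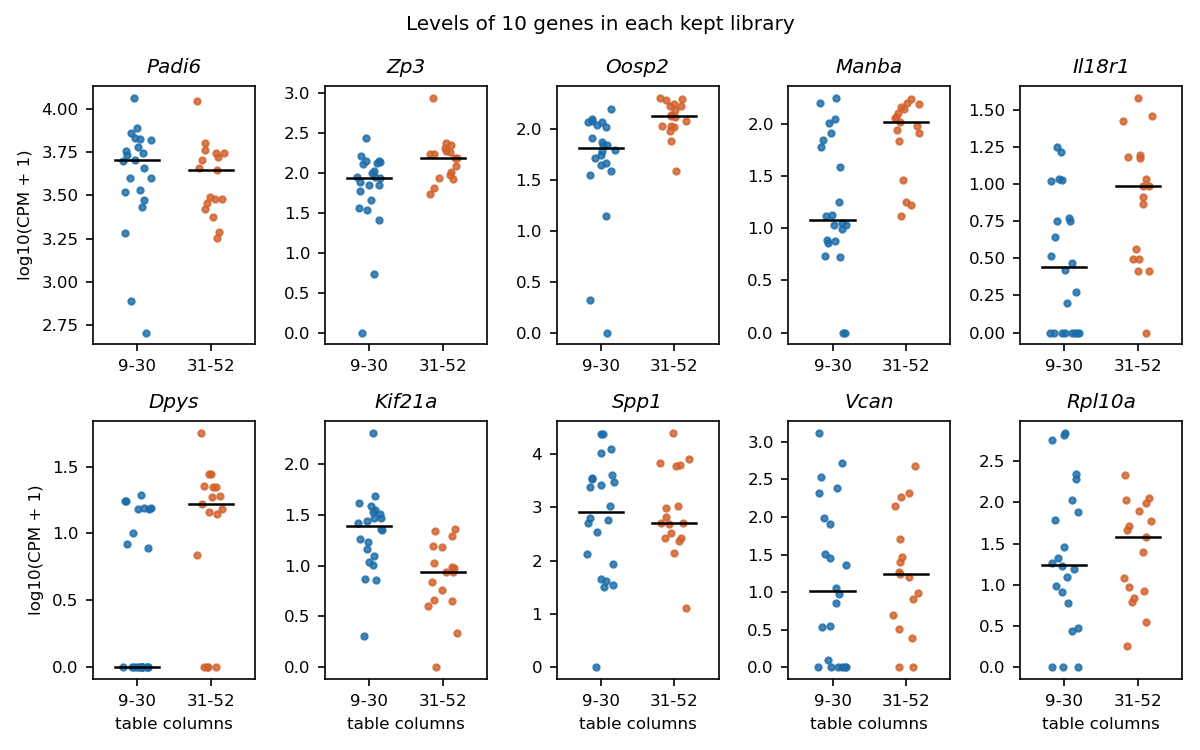
Levels of 10 genes in each of the 39 kept libraries, as log10(CPM + 1), in the earlier (columns 9-30, 22 points) and later (columns 31-52, 17 points) block; the horizontal bar is the block's median. Manba, Il18r1 and Dpys have higher medians and Kif21a a lower median in the later block, Padi6 differs little, Spp1, Vcan and Rpl10a span wide ranges in both, and every pair of ranges overlaps.

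Kif21a, a kinesin motor that moves along microtubules, was lower in the later columns. It ran from 1.05 CPM through 23.4 CPM to 202 CPM in the earlier libraries and from 0 CPM through 7.73 CPM to 21.9 CPM in the later ones, 4.22-fold lower when pooled (95% interval 3.78 to 4.72). The later library was the higher in only 17.4% of pairs, no single library moved the ratio by 1.5 times, and Kif21a was at least 2-fold lower under each of the 3 labels. Its rho with the other-cell share was 0.21. Sh3d19, at 35.2 CPM against 15.3 CPM, had the lowest share of pairs with the later library higher, 16.0%, and was picked after its values were seen.

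Other named lower genes rested on single libraries to differing degrees. Pik3c2g, a lipid kinase, was 5.65-fold lower (95% interval 4.99 to 6.42) with medians of 4.24 CPM and 1.18 CPM, and its log2 ratio of -2.50 became -1.34 without column 13. Hs6st2, which adds sulfate to heparan sulfate chains, was 4.76-fold lower, with a count in 12 of 22 earlier and 7 of 17 later libraries. Its log2 ratio of -2.25 stayed between -2.53 and -1.79 when each library was left out in turn. Of the 428 lower genes, 331 (77.3%) had a rho above 0.5 with the share of other-cell markers, against 21.9% of all compared genes. The part of other-cell RNA in the lower group was not tested.

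Padi6, the gene that carries the study's variant, ran from 511 CPM through 5017 CPM to 11536 CPM in the earlier libraries and from 1796 CPM through 4416 CPM to 11108 CPM in the later ones, a pooled log2 ratio of -0.04. Of the 14 genes of the complex and the lattices, 0 were 2-fold apart, where 5.43% of all compared genes were, a share that leaves less than 1 gene in a list of this size. Their median log2 ratio was 0.18 against -0.11 over all compared genes. Their summed share of counts had medians of 2.35% and 2.38%. Nlrp9c, an oocyte NLR family gene, was 1.56-fold higher in the later columns, at medians of 818 CPM and 1142 CPM. Khdc3, Ooep and Tle6, core members of the complex, were 1.95-fold, 1.72-fold and 1.70-fold higher when pooled. Column 41 was the highest library for 5 of the 14 genes, and the log2 ratio of Khdc3 went from 0.96 to -0.14 without it. Those of Ooep and Tle6 went from 0.78 and 0.77 to 0.20 and 0.43. Within libraries labelled wild-type oocyte, the log2 ratios of Khdc3, Ooep and Tle6 were -0.22, -0.81 and 0.31.

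None of the 21 genes of metaphase arrest and cyclin B control was 2-fold apart, which is near the 5.43% of all compared genes. Their median log2 ratio was 0.35. Mos, by whose level the libraries were chosen, is among the 21, so for Mos these values are a description. Mapk3, a kinase downstream of Mos, was 1.88-fold higher, with a log2 ratio of 0.91 that was 0.24 without column 41. Cdk1, the kinase that cyclin B activates, and Rps6ka2, a kinase of the Mos pathway, had log2 ratios of -0.87 and -0.94. The medians of Cdk1 were 13.0 CPM and 12.9 CPM, and the ratio of Rps6ka2, whose rho with the other-cell share was 0.83, was -0.0062 without column 25. None of the 20 spindle and chromosomal passenger genes was 2-fold apart, also near that share. Birc5 and Aurkc of the chromosomal passenger complex were at medians of 59.7 CPM and 520 CPM in the earlier and 91.7 CPM and 708 CPM in the later libraries. The later library was the higher in 78.6% and 73.8% of pairs.

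Among oocyte-secreted and zona pellucida genes, 1 of 11 was 2-fold higher and 0 lower, beside 0.677% higher and 4.75% lower over all compared genes. Their median log2 ratio was 0.45. Zp3, a protein of the zona pellucida, ran from 0 CPM through 86.4 CPM to 271 CPM in the earlier libraries and from 53.5 CPM through 154 CPM to 873 CPM in the later ones. It was 2.29-fold higher when pooled (95% interval 2.21 to 2.37), but its log2 ratio of 1.19 was 0.73 without column 41. Oosp2, a protein secreted by oocytes, was 1.86-fold higher, at medians of 64.4 CPM and 132 CPM, and the later library was the higher in 84.2% of pairs. Column 41 also held the highest values of Zp1 and Zp2. Without it their log2 ratios went from 0.89 and 0.81 to -0.06 and 0.15, and the list's median to 0.15.

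In the other maternal lists, each too short for the 5.43% of all compared genes to give more than about 1 gene, none was 2-fold higher or lower among 12 oocyte transcription factors, 12 egg activation genes, 16 mRNA storage genes, 17 mRNA decay genes, 13 DNA methylation genes, 13 regulators of genome activation, 5 meiotic cohesin genes, 10 imprinted genes and 9 mitochondrially encoded protein genes that were compared. Obox2, an oocyte homeobox gene, was the farthest apart of the transcription factors, at 1.75-fold higher. Dazl, which binds stored mRNA, was 1.46-fold higher, and Btg4, an adaptor for mRNA deadenylation, 1.33-fold higher. The log2 ratios of Obox2, Dazl and Btg4 were 0.81, 0.55 and 0.41 when pooled, but 0.35, 0.18 and 0.18 between library medians. Within libraries labelled mutant 2-cell they were -0.12, 0.37 and -0.16. Lsm14b, a protein of stored ribonucleoprotein, was 1.41-fold lower. Dnmt1, the maintenance DNA methyltransferase, was 1.35-fold higher and Dnmt3a 1.24-fold lower.

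Of the 31 listed genes of 2-cell activation that the table holds, 2 were compared and 12 had no count in any kept library. Both compared genes, Arg2 and Sp110, were within 1.5-fold. Of 19 compared histone and histone methylation genes, 1 was 2-fold apart, which is near the 5.43% of all compared genes. H2az1, a variant histone, was 3.57-fold lower when pooled although its medians were 64.6 CPM and 76.7 CPM. Column 13 held 2685 CPM of it, and without that library the log2 ratio was -0.97 in place of -1.84.

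Cumulus and granulosa markers were lower in the later columns when pooled. Of 15 compared, 11 were at least 2-fold lower and 0 higher, beside 4.75% lower over all compared genes. Their median log2 ratio was -1.23. Thbs1, a matrix glycoprotein, was 6.10-fold lower, Vcan, the matrix proteoglycan versican, 2.89-fold lower and Fst, the activin-binding follistatin, 2.80-fold lower. Per library, Vcan ran from 0 CPM through 9.36 CPM to 1323 CPM in the earlier columns and from 0 CPM through 16.2 CPM to 469 CPM in the later ones. Column 25 was the highest library for 12 of the 15, and without it the list's median log2 ratio was -0.21 and those of Thbs1, Vcan and Fst were -0.77, -0.26 and -0.21. Of 11 compared oviduct markers, 1 was 2-fold lower, beside the same 4.75%. It was Timp1, an inhibitor of metalloproteinases that was listed with them, at 335 CPM against 144 CPM. Its libraries ran from 0 to 2047 CPM and from 2.94 to 674 CPM, and its log2 ratio of -1.22 was -0.50 without column 25. Across the 39 libraries, Spp1 of the same list had a rho of 0.89 with Timp1 and 0.89 with the cumulus and granulosa share. Which cells the RNA of Spp1 and Timp1 came from was not tested.

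Cytosolic ribosomal protein genes moved with the other-cell markers. Their summed share of counts ran from 0.128% through a median of 0.289% to 7.04% in the earlier libraries and from 0.0689% through 0.502% to 3.14% in the later ones. Of 79 compared, 20 were at least 2-fold lower in the later columns when pooled and 0 higher, beside 4.75% lower over all compared genes. Their median log2 ratio was -0.88, while the per-library medians pointed the other way, with a median log2 ratio of 0.78. Across the 39 libraries the share had a rho of 0.84 with that of other-cell markers. Column 11 was the highest library for 45 of the 79 genes and column 25 for 27. Rpl10a, a protein of the large ribosomal subunit, was 2.71-fold lower, but under 2-fold without column 25 and also without column 13. Without column 25 the list's median log2 ratio was -0.40.

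**Figure D4:**
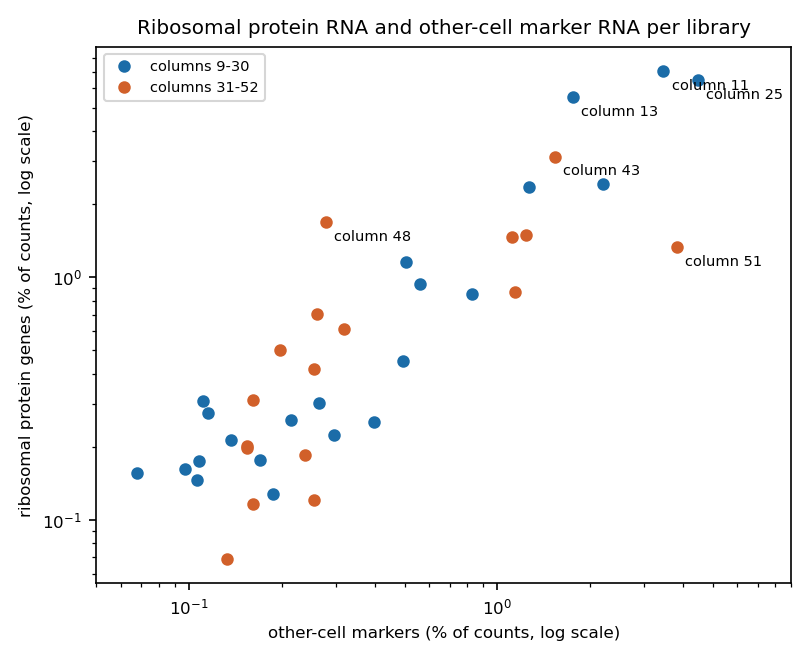
Summed share of cytosolic ribosomal protein genes (y axis) against the summed share of other-cell markers (x axis), both in percent of counts on log scales, for the 39 kept libraries coloured by block. Libraries high in the one are high in the other (rho 0.84), columns 11, 13 and 25 have the highest ribosomal shares, and the blocks overlap.

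Of the compared nuclear genes of oxidative phosphorylation, proteasome subunits and stress genes, 2 of 70, 2 of 34 and 4 of 21 were at least 2-fold lower and 0 higher, beside 4.75% lower over all compared genes. Their median log2 ratios were -0.41, -0.34 and -0.43 when pooled, but -0.07, -0.13 and -0.02 without column 25, and the ratios of per-library medians had medians of 0.40, 0.06 and 0.03. The 4 stress genes were Gadd45b, Atf4, Jun and Ier3, at log2 -1.49, -1.18, -1.17 and -1.13, with rho between 0.57 and 0.90 with the other-cell share. Without column 25, Gadd45b was at -0.47, Jun at 0.09 and Ier3 at -0.51, and Atf4 was also under 2-fold. Jun was at -1.79 without column 40. Vim, an intermediate filament gene of many somatic cells, at log2 -1.02, was the only 1 of 22 compared cytoskeleton genes past 2-fold, and it was at 0.17 without column 25, with medians of 8.19 CPM in the earlier and 18.7 CPM in the later libraries. Of the mitochondrially encoded genes, mt-Nd1 was at medians of 556 CPM and 558 CPM.

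With only the 14 earlier and 12 later libraries that had at most 0.5% of other-cell markers, the balance of the comparison turned. Of 7980 genes compared there, 317 (3.97%) were at least 2-fold higher in the later columns and 59 (0.739%) lower. Of the 61 genes higher over all libraries, 39 were among the 317, and of the 428 lower ones, 32 were among the 59. The ribosomal protein list had a median log2 ratio of 1.10, with 48 of 76 genes 2-fold higher, and the nuclear oxidative phosphorylation list one of 0.66, with 22 of 63. Column 48, with 0.277% of other-cell markers and 1.69% of ribosomal protein genes, had a large part in these counts. Without it, 206 genes were higher and 70 lower, and the ribosomal list had a median of 0.56, with 6 of 70 genes 2-fold higher. In the 26 libraries Kif21a was 6.46-fold lower, and the maternal complex list had a median log2 ratio of 0.14.

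Other-cell markers did not stand level in those 26 libraries either. The marker lists make up the sum that the 0.5% limit caps, so the limit itself partly sets their ratios there. The cumulus and granulosa list had a median log2 ratio of 0.18 over 8 compared genes. The oviduct list had one of 1.16, with 5 of 8 genes 2-fold higher, beside 3.97% of all genes compared there. Without column 48 it had one of 0.80, with 3 of 8. Ovgp1, the oviduct-secreted glycoprotein, was 3.89-fold higher there, from 0.978 through 46.1 to 347 CPM in the earlier and from 42.6 through 177 to 588 CPM in the later libraries. Over all 39 libraries it was 1.38-fold higher. The libraries nearest the 0.5% limit were column 22, at 0.494%, and column 9, at 0.505%.

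**Figure D5:**
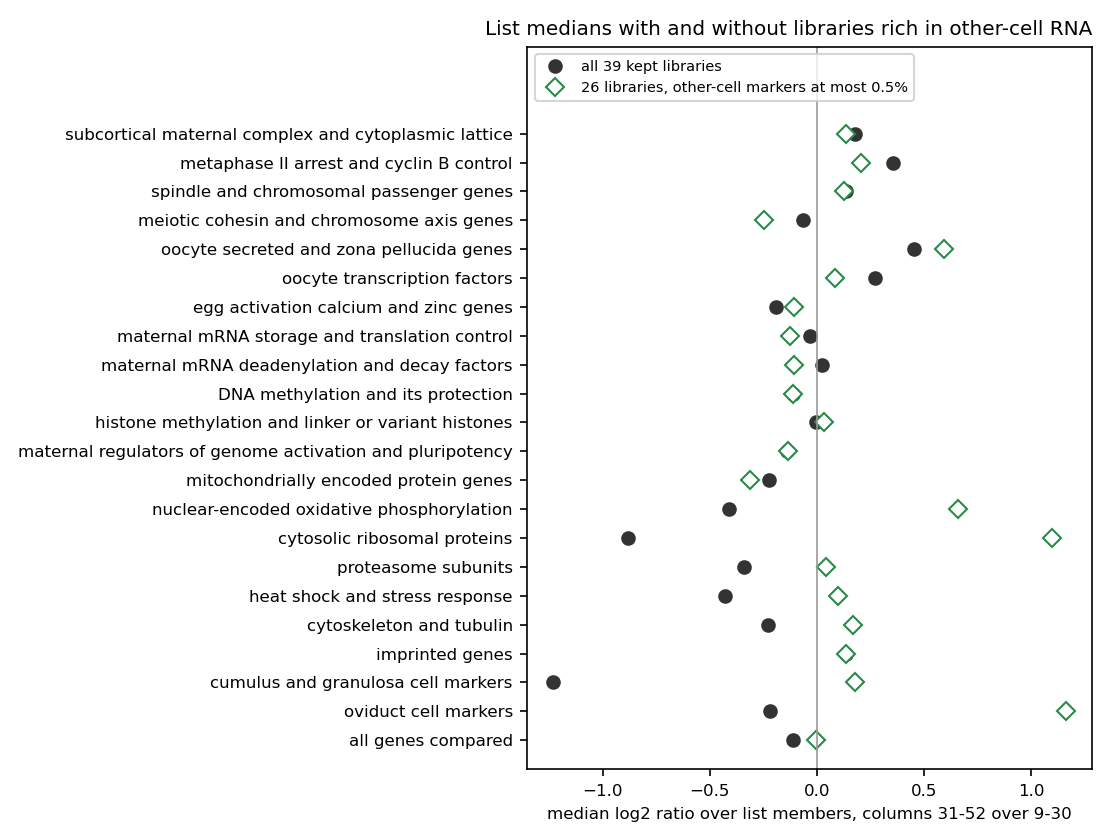
Median log2 ratio, later over earlier columns, of each gene list with at least 5 compared members, over all 39 kept libraries (filled circles) and over the 26 with at most 0.5% of other-cell markers (open diamonds). The ribosomal protein list moves from -0.88 to 1.10 and the cumulus and granulosa list from -1.23 to 0.18, while the maternal complex list is at 0.18 and 0.14. The cumulus and granulosa list and the oviduct list are part of the sum that the 0.5% limit caps, so the limit partly sets their diamonds.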

How the data were processed

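The deposited table holds counts of reads per gene and library in whole numbers, with no normalization. Reads were trimmed with Trim Galore 0.4.4 and aligned with HISAT2 2.1.0 to GRCm39, and DESeq2 is listed without a version, per the submitters' processing notes. The counter and annotation are not given in the sources used here. Its 36983 entries carry gene symbols, and the 48 repeats of a symbol were added to its other entry, which gave 36935 symbols. Each of the 96 columns was matched to its sample by name, and 0 were without a match. No coordinates or sequences were used, because the reference given is of another build.

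Libraries, totals and CPM were computed in Python 3.11.15 with pandas 2.3.3, numpy 2.4.6 and scipy 1.17.1. The level of a gene in a block was its pooled CPM. Ratios are later over earlier columns, with exact conditional binomial 95% intervals at a confidence level of 0.95. A block without a count stood at a floor of 3 counts over the block. Single cells are not replicates and no animal is named, so no p-value is given. Doublets were not searched for, since 1 cell was picked for each library. The comparison was tested on simulated data with known ratios.

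The genes named were Mos and Padi6, the 12 with the largest and 12 with the smallest ratio among properly named genes at least 2-fold apart where the medians over libraries (CPM + 1) were also 1.5-fold apart in that direction, up to 4 members of each of 25 gene lists with the largest ratio either way, and Spp1 and Timp1. The text gives a part of these, picked after their values were seen, and only that part had its ratios checked under the alternatives. The members and lists, and the limits of 500 CPM of Mos and 0.5% of other-cell markers, were chosen with earlier results of these data known. Alternatives covered scaling with TMM factors (edgeR 4.0.16) and DESeq2 1.42.0 size factors in R 4.3.3, the median or mean over libraries, filters on genes and libraries, the labels, and leaving out each library.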

Additional observations from a re-analysis of the deposited data

Results flagged for a closer look

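Some columns outside the limits on depth and genes also held oocyte RNA, above the 3 counts that a count of 0 allows. Column 7, labelled wild-type 2-cell and outside both blocks, had 3099 CPM of Mos (131 counts) and 12089 CPM of Padi6 in 42270 counts. Column 32, labelled wild-type 2-cell, had 651 CPM of Mos (212 counts) but 0 counts of Padi6 in 325422 counts and 3671 genes. Column 35, labelled wild-type oocyte, had 3259 CPM of Mos (108 counts) and 8631 CPM of Padi6 in 33137 counts. Outlying single libraries were not searched for in the 2 blocks, which hold more libraries than the rule for that covers.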

How the results depend on the processing

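No paired analysis was possible because the label numbers are unique to each library and no test was run. The likeness of libraries between blocks moved by less than its spread under every alternative, and the higher and lower counts moved as follows. Leaving out each library in turn gave 45 to 80 higher genes, 93 to 711 lower genes, 0 to 0 genes without overlap, and a median correlation between blocks of 0.760 to 0.780. DESeq2 size factors gave 275 lower genes. The median over libraries gave 175 higher and 42 lower, the mean 33 and 182, and a 1 CPM filter 308 and 879. A Mos limit of 500 CPM, which leaves out columns 11 and 25, gave 74 lower genes; these are also the 2 least alike libraries, and leaving them out for that reason gave the same counts. At most 0.5% of other-cell markers gave 317 higher and 59 lower. Within labels, few libraries entered. Higher, lower and non-overlapping genes were 367, 1303 and 172 of 8821 compared for wild-type oocyte (6 earlier and 6 later libraries). They were 1657, 426 and 412 of 8892 for mutant 2-cell (6 and 3 libraries), and 446, 3060 and 8 of 10342 for wild-type 2-cell (6 and 8 libraries). With so few libraries some genes separate by order alone, and how many was not tested. The 3 alternatives chosen after seeing the data gave 715 lower genes without libraries labelled negative control, 162 higher and 41 lower for the median at most 0.5% of other-cell markers, and 206 and 70 for that limit without column 48. The cause of these shifts was not tested, apart from fewer libraries or another gene filter where the alternative itself sets it.

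The named genes and lists at least 2-fold from even over all libraries that changed sign, or came to 0, were all below 0 on the log2 scale over all libraries. With the median over libraries they were 0.17 for Timp1, 0.20 for the cumulus and granulosa list, 0.24 for H2az1, 0.42 for Thbs1, 0.73 for Vcan and 1.12 for Rpl10a. With at most 0.5% of other-cell markers they were 0.081 for H2az1, 0.18 for the cumulus and granulosa list, 0.25 for Fst, 0.28 for Vcan, 0.92 for Timp1 and 1.45 for Rpl10a. Without column 48 as well they were 0.041 for H2az1, 0.25 for the list, 0.33 for Fst, 0.43 for Vcan, 0.56 for Timp1 and 0.86 for Rpl10a. With both the median and that limit they were 0 for Hs6st2, 0.27 for Rpl10a, 0.48 for H2az1, 0.63 for Timp1, 0.76 for Thbs1, 1.63 for the list, 1.93 for Vcan and 2.92 for Fst. Within the wild-type oocyte label they were 0.045 for the list, 0.12 for Vcan and 1.81 for Thbs1. Within the mutant 2-cell label they were 1.42 for Rpl10a, 1.76 for Timp1, 1.83 for Fst, 2.01 for Thbs1, 2.15 for the list, 2.34 for Hs6st2 and 5.44 for Vcan. The cumulus and granulosa list, Vcan, Fst, Thbs1 and Timp1 are part of the sum that the 0.5% limit caps, so that limit partly sets their values under it. Smaller values changed sign too: of 28 genes and 24 lists under 2-fold, 3 and 11 with the median, 0 and 9 with at most 0.5% of other-cell markers, 4 and 5 within wild-type oocyte, 8 and 13 within mutant 2-cell and 9 and 9 within wild-type 2-cell. Among them, with the median, the ribosomal list was at 0.78, the oxidative phosphorylation list at 0.42 and the oviduct list at 0.73. None of the 12 genes named as higher, nor Kif21a, changed sign under any alternative. They were chosen for large pooled ratios with library medians the same way in these same libraries, so this is no independent support. Depth limits low genes: a gene at 10 CPM rests on few counts in the shallowest library, of 162539 counts.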
